A study of Rattus norvegicus with 6 samples.

Results

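The 10 genes described here encode proteins of the cells that line blood vessels. They comprise 3 genes typical of liver sinusoidal endothelium (Lyve1, Stab1 and Fcgr2b) and 7 genes expressed by endothelium of most organs (Pecam1, Kdr, Cdh5, Eng, Flt1, Vwf and Tek). They were chosen by name: a probe belonged to a gene when the accession that the array files give for it matched that gene's symbol in the RefSeq gene table. Of the 15284 genes that had a matched probe on the array, 8 were among the 10, with 15 probes between them. No probe was matched to Stab1 or Vwf, which were not analysed here, and 7 genes were bright enough to be tested.

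Liver RNA came from 6 male Sprague-Dawley (Crl:CD(SD)) rats, 5 weeks old when purchased and fed a basal diet. The control group was 3 rats on corn oil alone, and the treated group 3 rats on o-Anthranilic acid, a breakdown product of tryptophan, at 1000 mg/kg/day. The treatment protocol gives 9 weeks of dosing and the series design gives day 28, so the length of dosing is not settled. Each rat had 1 single-colour array.

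The sinusoid is the wide, leaky capillary of the liver. Its endothelium has pores, no continuous basement membrane, and a set of scavenger receptors that clear hyaluronan, immune complexes and other waste from the blood. In most organs, endothelium is held together by VE-cadherin and PECAM-1. The growth and rest of endothelium, that of the sinusoid included, are set by receptors for vascular endothelial growth factor (VEGF), for the angiopoietins and for bone morphogenetic proteins. In whole liver, fewer endothelial cells and less RNA per cell cannot be told apart. The signals of sinusoidal and other vessels are also mixed, so sinusoidal and general vascular genes cannot be assigned to separate vessels.

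Of 61657 probes, 53.3% to 58.0% per array exceeded background clearly, and 0 spots were saturated. Slide 1 held 5 of the arrays, and slide 2 held anthranilic acid replicate 3. Within slide 1 the controls took row 1 and treated replicates 1 and 2 took row 2, so row and treatment cannot be told apart on that slide, while treated replicate 3 was in row 1 of slide 2. Values below are log2 signals relative to the array's 75th percentile, so that 0 is the signal that 75% of probes do not exceed. Where a gene had several tested probes, the one with the highest mean log2 signal represents it. The label of the tissue was matched by its defining genes, as all 7 listed hepatocyte markers, albumin (Alb) among them, were well above background on all 6 arrays.

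None of the 7 tested endothelial genes passed limma's test at an adjusted p under 0.05 (0 of 7, against 0% of the 10257 tested genes and 0.0329% of the 33428 tested probes). At an unadjusted p under 0.05 there were 2 of 7, Lyve1 and Flt1, both lower in treated livers, where 11.6% of all tested genes met that mark, 6.15% as lower and 5.47% as higher. For these 2 genes the 3 treated livers lay below the 3 corn oil livers, as was the case for 9.13% of all tested genes, and groups were apart in either direction for 2 of 7 against 19.8%. The 7 representing probes were well above background on all 6 arrays, so none entered the test through 1 group alone. The median difference (anthranilic acid minus corn oil) over the 7 genes was -0.15, against 0.01 over all tested genes. Of the 7, 6 stood below 0, where 48.0% of all tested genes did, but Kdr and Pecam1 stood so near to 0 that scaling to each array's median put them above it and left 4 of 7 below. The counts that include Flt1 rest on its representing probe. Its other tested probe stood at 0.25 with overlapping groups, and with that probe 5 of 7 were below 0.

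**Figure D1:**
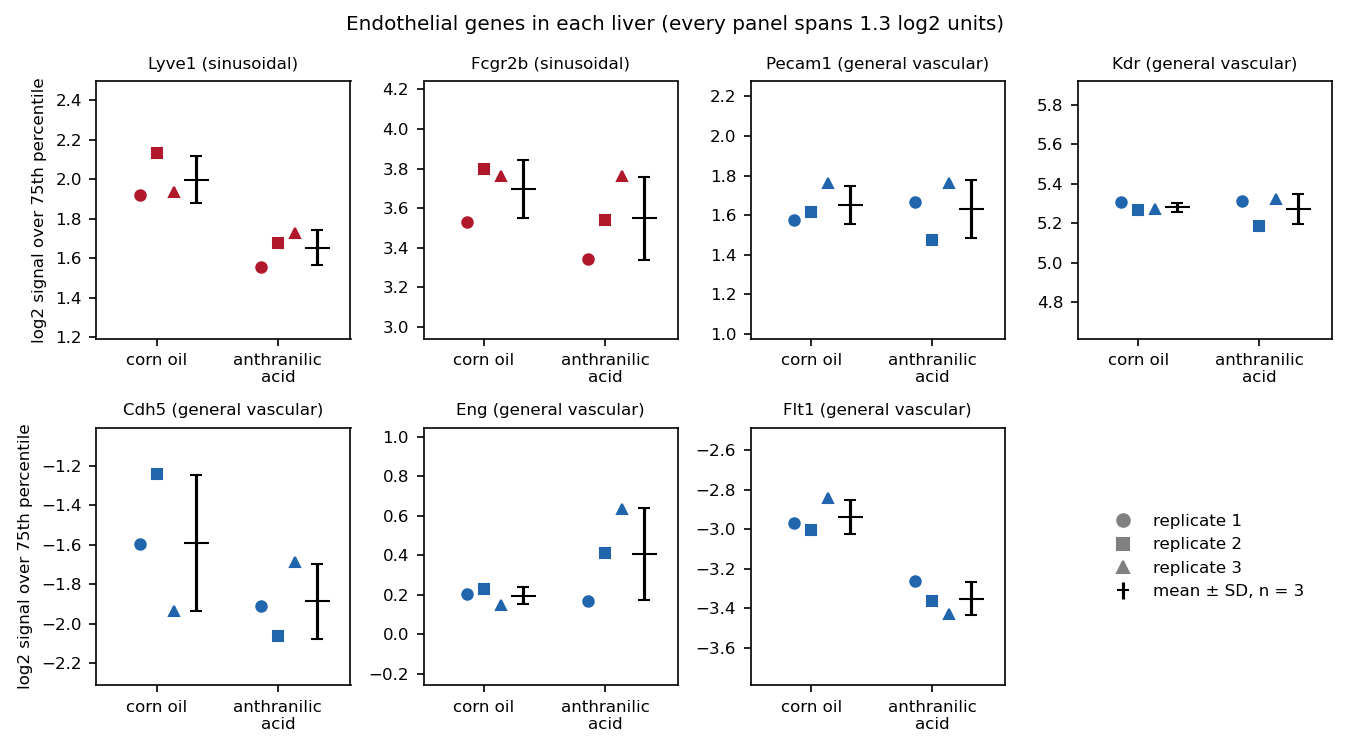
Log2 signal over the array's 75th percentile for the 7 tested endothelial genes, 1 panel per gene, with a point per liver (3 per group) and the mean with its SD beside them. At the representing probes shown, treated and corn oil livers are apart for Lyve1 and Flt1 and overlap for Fcgr2b, Pecam1, Kdr, Cdh5 and Eng.

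Lyve1 encodes a receptor for hyaluronan found on sinusoidal and lymphatic endothelium. Its log2 signals were 1.92, 2.13 and 1.93 in corn oil livers and 1.55, 1.68 and 1.73 in treated livers. Every treated liver was below every corn oil liver. The difference was -0.34 (SE 0.10, 95% interval -0.59 to -0.10, n = 3 per group), or a signal ratio of 1.27 between corn oil and treated livers, with a limma adjusted p of 0.319. A second, dimmer Lyve1 probe, A_44_P156690, gave -0.51, -0.30 and -0.42 in corn oil livers against -0.75, -0.58 and -0.51 in treated livers. The groups were narrowly apart at that probe too, with corn oil replicate 1 and anthranilic acid replicate 3 almost level, and it differed by -0.20 (SE 0.11, limma adjusted p = 0.470). Of all tested genes, 9.05% had a difference lower than that of Lyve1.

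Fcgr2b encodes the inhibitory receptor for immunoglobulin G, which in liver is mostly on sinusoidal endothelium and takes up small immune complexes. Its brighter probe read 3.53, 3.80 and 3.76 in corn oil livers and 3.34, 3.54 and 3.76 in treated livers. The groups overlapped, since corn oil replicate 1 lay below anthranilic acid replicates 2 and 3. The difference was -0.15 (SE 0.14, 95% interval -0.48 to 0.19, limma adjusted p = 0.678), and it was -0.26 without anthranilic acid replicate 3 and -0.05 without anthranilic acid replicate 1. Without corn oil replicate 1 it was -0.23, and without corn oil replicate 2 or with median scaling it was -0.098. The second probe gave a similar value of -0.16 (SE 0.10, limma adjusted p = 0.517). Fc gamma receptor genes are similar in sequence, so the assignment of this signal to Fcgr2b alone is uncertain.

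B cells and Kupffer cells also express Fcgr2b. Of 4 B cell markers, 2 were tested, with a median of 0.50. Cd79b, a part of the B cell receptor, read -2.21, -2.57 and -2.47 in corn oil livers and -1.71, -1.31 and -0.90 in treated livers. Every treated liver was above every corn oil liver, and the difference was 1.11 (SE 0.22, limma adjusted p = 0.202), or 0.72 with normexp background correction. Cd22, an inhibitory receptor of B cells, stood at -0.10 (SE 0.26, limma adjusted p = 0.896), and at 0.19 without corn oil replicate 3. The groups overlapped for Cd22, so the average of the B cell list, which covers only these 2 genes, was set apart by Cd79b. Relative to the corn oil mean, that average ranged from -0.14 to 0.27 in corn oil livers and from 0.35 to 0.69 in treated livers. Of 9 Kupffer cell markers, 8 were tested and 7 stood below 0, where 48.0% of all tested genes did. The median of this list was -0.17. Cd163 was at -0.40 (SE 0.19), with -0.39 and -0.10 at its other tested probes, and Adgre1 at -0.20 (SE 0.16). Without anthranilic acid replicate 2 they stood at -0.27 and -0.042, and without anthranilic acid replicate 3 Adgre1 stood at -0.33. The average of the Kupffer cell list ranged from -0.16 to 0.21 in corn oil livers and from -0.46 to 0.08 in treated livers. The defining B cell markers Cd79a and Ms4a1 had no matched probe, while those tested of both lists were well above background on all 6 arrays, and the part of these cells in the Fcgr2b value was not tested.

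Kdr and Flt1 encode the main receptors for VEGF. Kdr, VEGF receptor 2, carries most of its growth signal, and Flt1, VEGF receptor 1, binds VEGF tightly and limits what reaches Kdr. Kdr read 5.31, 5.26 and 5.27 in corn oil livers and 5.31, 5.19 and 5.32 in treated livers. These 6 values lay closer together than those of the other tested endothelial genes, and the treated livers lay on both sides of the corn oil livers. The difference was -0.01 (SE 0.08), with a 95% interval of -0.21 to 0.19, so a shift in signal between -13.3% and 14.1% lay within it (limma adjusted p = 0.977).

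Flt1 was dim, and its probes disagreed. The representing probe, A_44_P520123, read -2.97, -3.00 and -2.84 in corn oil livers and -3.26, -3.36 and -3.43 in treated livers. The groups were apart, with a difference of -0.42 (SE 0.09, 95% interval -0.64 to -0.19, limma adjusted p = 0.230), and it was -0.23 with normexp background correction. Probe A_64_P201730 read -2.61, -3.58 and -3.81 in corn oil livers and -3.65, -3.47 and -2.14 in treated livers. There, 1 corn oil liver and 1 treated liver were high and the groups overlapped, with a difference of 0.25 (SE 0.48, limma adjusted p = 0.860). The mean scanner signals of these 2 probes were 58.4 and 60.5, so the probe that is brighter on the log2 scale is the dimmer on the linear scale, and the direction given for Flt1 depends on that choice. The third Flt1 probe was not well above background on any array.

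**Figure D2:**
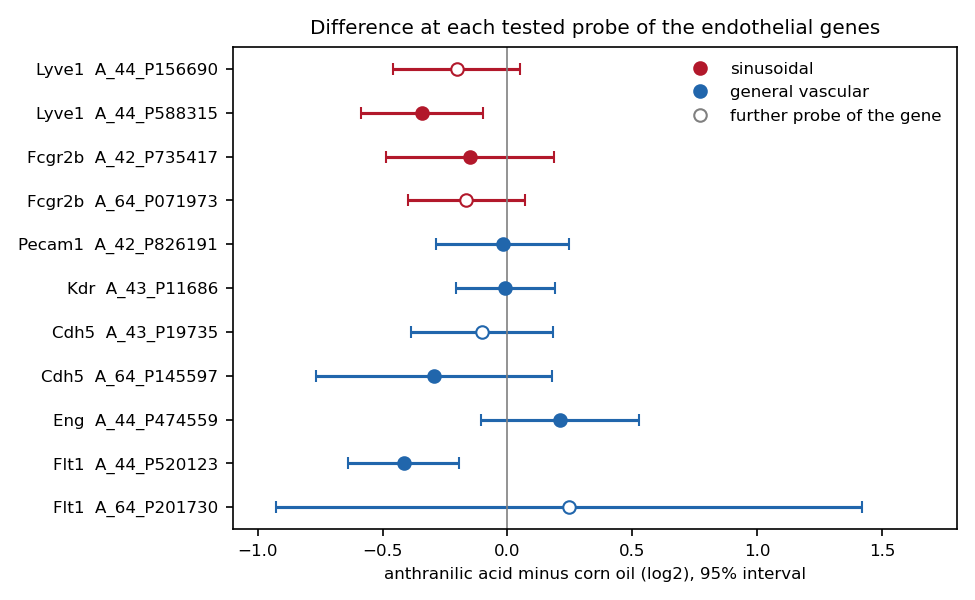
Difference between anthranilic acid and corn oil livers (log2) with its 95% interval at each of the 11 tested probes of the endothelial genes, where filled points mark the probe that represents its gene. The intervals of the brighter Lyve1 probe and of Flt1 probe A_44_P520123 lie below 0, and the other 9 cross 0.

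The promoters of Lyve1 and Flt1, whose groups were apart at the representing probe, are shown beside that of Kdr, whose values hardly differed. At the other tested Flt1 probe the groups overlapped, with a difference of 0.25. Each spans 250 bases before to 50 bases after the annotated start, from RefSeq on the GRCr8 build. Capitals mark AGGAAG or CTTCCT, a core recognised by ETS factors, which are regulators of endothelial genes. Lyve1 lies at chr1:174410928-174411227 on the minus strand, Flt1 at chr12:12333180-12333479 on the plus strand and Kdr at chr14:32571813-32572112 on the plus strand.
Lyve1: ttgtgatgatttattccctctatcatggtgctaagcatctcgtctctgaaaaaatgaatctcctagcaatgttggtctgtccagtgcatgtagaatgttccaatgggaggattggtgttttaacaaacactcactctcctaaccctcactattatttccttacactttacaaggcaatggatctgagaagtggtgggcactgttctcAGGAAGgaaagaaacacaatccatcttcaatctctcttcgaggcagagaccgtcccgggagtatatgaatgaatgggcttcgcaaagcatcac
Flt1: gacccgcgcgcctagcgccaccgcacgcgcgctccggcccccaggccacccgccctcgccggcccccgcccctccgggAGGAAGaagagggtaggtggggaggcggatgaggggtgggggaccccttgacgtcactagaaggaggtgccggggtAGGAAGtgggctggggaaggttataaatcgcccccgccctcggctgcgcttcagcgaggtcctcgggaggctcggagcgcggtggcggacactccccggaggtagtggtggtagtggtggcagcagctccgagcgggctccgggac
Kdr: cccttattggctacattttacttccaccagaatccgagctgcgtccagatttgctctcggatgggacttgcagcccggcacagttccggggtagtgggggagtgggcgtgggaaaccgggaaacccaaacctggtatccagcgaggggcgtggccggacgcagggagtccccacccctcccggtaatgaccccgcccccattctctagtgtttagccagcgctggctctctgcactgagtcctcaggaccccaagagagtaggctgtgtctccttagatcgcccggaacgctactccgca

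The ETS core occurred once in the Lyve1 window and 2 times each in the Flt1 and Eng windows, and these letters were not in the Kdr or Stab1 windows. The groups overlapped for Eng, and a relation of the core to the differences was not tested. The table held promoters for 5 of the 10 genes, of which 3 had the core, whereas 34.5% of all 33469 promoters had it on either strand. AGATAA or TTATCT, a core read by GATA factors such as GATA4 of sinusoidal endothelium, was in 0 of the 5 windows, against 11.6% of all promoters. TATAAA or TTTATA was in that of Flt1 only, against 14.2%. The G and C content was 43.3% for Lyve1, 61.0% for Kdr and 72.7% for Flt1, with a median of 51.7% over all promoters.

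Pecam1 (CD31) and Cdh5 (VE-cadherin) hold neighbouring endothelial cells together. Pecam1 read 1.57, 1.62 and 1.76 in corn oil livers and 1.67, 1.47 and 1.76 in treated livers. The groups overlapped over nearly their whole range, and the difference was -0.02 (SE 0.11, 95% interval -0.28 to 0.25, limma adjusted p = 0.959). Cdh5 read -1.60, -1.24 and -1.93 in corn oil livers and -1.91, -2.06 and -1.69 in treated livers. Corn oil replicate 2 was the highest of the 6, and the difference was -0.29 (SE 0.20, 95% interval -0.77 to 0.18, limma adjusted p = 0.560), or -0.12 without that liver and -0.47 without corn oil replicate 3. The dimmer Cdh5 probe differed by -0.10 (SE 0.12, limma adjusted p = 0.745).

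Eng encodes endoglin, a co-receptor for bone morphogenetic proteins 9 and 10, and was the only 1 of the 7 genes that stood above 0 at its representing probe. It read 0.21, 0.23 and 0.15 in corn oil livers and 0.17, 0.41 and 0.64 in treated livers. Anthranilic acid replicates 2 and 3 were above all corn oil livers, and replicate 1 lay among them. The difference was 0.21 (SE 0.13, 95% interval -0.11 to 0.53, limma adjusted p = 0.537), 0.10 without anthranilic acid replicate 3, the array on slide 2, and 0.33 without anthranilic acid replicate 1.

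Tek encodes Tie2, the receptor of the angiopoietins. Its brighter probe was well above background in 2 of 3 corn oil livers and 1 of 3 treated livers, and the other in 0 of 6, so Tek was not tested with the others. The brighter probe read -4.00, -4.22 and -3.89 in corn oil livers and -4.31, -3.82 and -3.85 in treated livers. The groups overlapped at that probe, whose difference was 0.05 (SE 0.18, limma adjusted p = 0.915) when the filter on dim probes was lifted.

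The contrast between sinusoidal and general vascular genes rested on Lyve1 and Fcgr2b against Pecam1, Kdr, Cdh5, Eng and Flt1. The median difference was -0.25 for the sinusoidal genes and -0.02 for the vascular genes. To compare them in each liver, every gene was set to 0 at its corn oil mean and averaged within its class. The sinusoidal average was -0.12, 0.12 and 0.00 in corn oil livers (rounded) and -0.40, -0.24 and -0.10 in treated livers. The vascular average was -0.01, 0.05 and -0.04 in corn oil livers and -0.12, -0.19 and 0.00 in treated livers. Both averages overlapped between the groups, with corn oil replicate 1 the lowest control for the sinusoidal genes.

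Subtracted within each liver, the sinusoidal minus vascular value was -0.11, 0.07 and 0.04 in corn oil livers and -0.27, -0.05 and -0.10 in treated livers. The groups overlapped, and the group difference of -0.14 stood against SDs of 0.093 in corn oil and 0.12 in treated livers (n = 3 each). It was -0.27 with the other Flt1 probe, again with overlapping groups, and -0.074 without anthranilic acid replicate 1. With 2 sinusoidal genes and 3 rats per group, a contrast between the classes was not resolved, and no test was run on these averages.

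**Figure D3:**
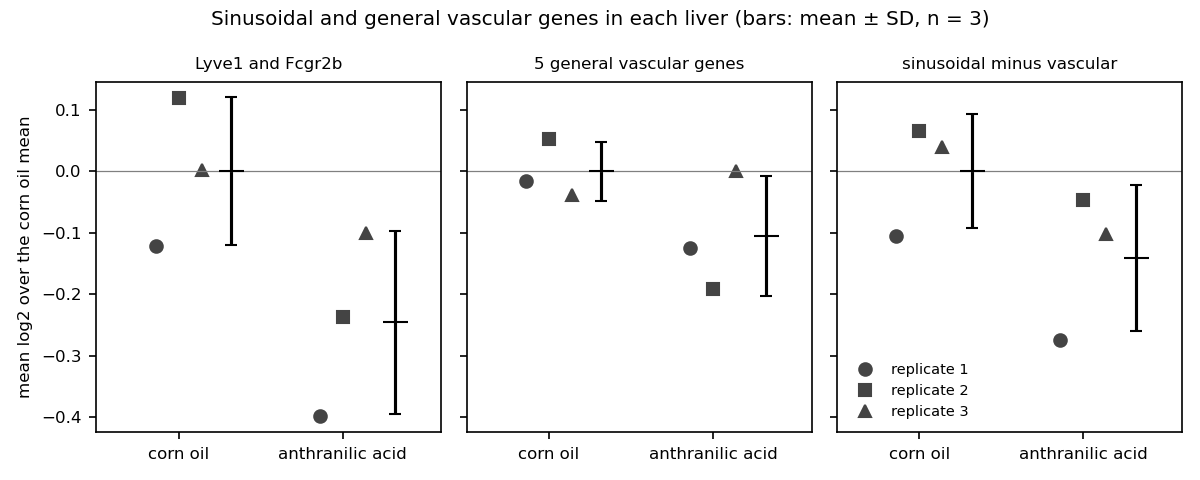
Average log2 signal over the corn oil mean in each liver for the sinusoidal genes Lyve1 and Fcgr2b, for the 5 general vascular genes, and for the first minus the second, with the mean and SD of 3 livers per group. Treated livers average -0.25 and -0.10 for the 2 classes, and the groups overlap in all 3 panels.

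Of 10 other genes of the sinusoidal endothelium, 8 were tested and 0 passed in either direction. Below 0 stood 6 of the 8, where 48.0% of all tested genes did, and the median was -0.07. Groups were apart for 1 of 8 as lower and 1 of 8 as higher, against 9.13% and 10.7% of all tested genes. Ehd3, an endocytic protein of sinusoidal endothelium, read -1.44, -1.45 and -1.43 in corn oil livers and -1.85, -2.12 and -1.84 in treated livers. Every treated liver was below every corn oil liver, and the difference of -0.50 (SE 0.10) had a limma adjusted p of 0.212 and was -0.32 with normexp. Oit3, a secreted protein made by these cells in liver, stood on the other side at 0.30 (SE 0.14, limma adjusted p = 0.435), and its groups were apart as well. It was at 0.18 without anthranilic acid replicate 2. The mannose receptor Mrc1 was at -0.05, the clotting factor F8 at -0.10 and the transcription factor Gata4 at -0.12. Stab2, the main hyaluronan-clearing receptor of the sinusoid, had no matched probe.

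Among 25 other vascular genes, 17 were tested and 0 passed in either direction. Of the 17, 13 stood above 0 and 4 below, where 48.0% of all tested genes stood below, and the median was 0.11. Among the 13 were S1pr1 at 0.60 (SE 0.32), Sox18 at 0.33 (SE 0.14) and Nos3 at 0.29 (SE 0.16), each with overlapping groups. Emcn, among the 4 below 0, stood at -0.35 (SE 0.14), also with overlapping groups. At an unadjusted limma p under 0.05, 3 of the 17 were lower and 1 higher, against 6.15% and 5.47% of all tested genes. The 2 genes of smallest p were among the 4 below 0. Procr, the endothelial protein C receptor, stood at -0.60 (SE 0.19, limma adjusted p = 0.336), with groups apart, and its second probe was at -0.49. It was at -0.39 with normexp. Calcrl, the receptor for adrenomedullin, was at -0.26 (SE 0.09, limma adjusted p = 0.381), also with groups apart, but at -0.054 with normexp. Groups were apart for 2 of the 17 as lower and 0 of 17 as higher, against 9.13% and 10.7% of all tested genes.

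The growth factors that bind Kdr and Flt1 differed in sign. Vegfa, the ligand of both receptors, read 4.99, 4.78 and 4.81 in corn oil livers and 5.07, 5.29 and 5.01 in treated livers. Anthranilic acid replicate 3 was only just above corn oil replicate 1, and the difference was 0.27 (SE 0.11, limma adjusted p = 0.415). The other 5 Vegfa probes gave values from 0.02 to 0.15, and the mean over its probes was 0.14. Vegfb, a ligand of Flt1, stood at -0.38 (SE 0.13, limma adjusted p = 0.356), with the same value at its other probe and groups apart. Pgf, the placental growth factor that also binds Flt1, was well above background on at most 1 array at any of its 3 probes. In this list 5 of 8 genes were tested and 0 passed, with a median of -0.07.

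The ligands of Tek stood near 0, with Angpt1, its activator, at 0.09 (SE 0.15) and Angpt2, which opposes Angpt1 in many settings, at -0.03 (SE 0.32), although normexp background correction gave Angpt1 as -0.07 and Angpt2 as 0.01, and Angpt2 was also above 0 with quantile or median scaling. Tie1, the partner receptor of Tek, was at 0.11 (SE 0.12, limma adjusted p = 0.742), and at 0.020 without corn oil replicate 1. The other tested Tie1 probe was at -0.05 (SE 0.39), and the mean over the Tie1 probes was 0.028. Of the 5 genes of this list 3 were tested and 0 passed.

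In the pathway of endoglin, 16 of 18 genes were tested, 0 passed and the median was 0.07. Of the 16, 11 stood above 0 and 5 below, where 48.0% of all tested genes stood below. Among the 5 was Tgfbr3 at -0.23 (SE 0.26), well above background on 3 corn oil arrays but at most 1 treated array. It entered the test through the corn oil group alone. Groups were apart for 5 of 16 as higher, against 10.7% of all tested genes, and for 0 as lower. Id2, a target of bone morphogenetic protein signalling in many cell types, read 3.07, 2.56 and 2.59 in corn oil livers and 3.36, 3.55 and 3.99 in treated livers. Every treated liver was above every corn oil liver, and the difference of 0.89 (SE 0.21) had a limma adjusted p of 0.252, with 0.86 at its second probe. Id1 and Id3, related targets, were at -0.31 (SE 0.27) and 0.20 (SE 0.27). Smad1, which carries the signal to the nucleus, was at 0.25 (SE 0.10, limma adjusted p = 0.392). The other tested Smad1 probe was at 0.10 (SE 0.10). The ligand Gdf2 (bone morphogenetic protein 9) stood at -0.20 (SE 0.12) and, at its other tested probe, at -0.47 (SE 0.13, limma adjusted p = 0.293). Its receptor Acvrl1 was at 0.01 (SE 0.11, limma adjusted p = 0.966).

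The remaining lists also had 0 genes past the threshold. Partners of VE-cadherin and other junction genes had a median of 0.06 over 9 of 10 genes, with the catenin Ctnnd1 at 0.17 (SE 0.09) and plakoglobin (Jup) at 0.13 (SE 0.11), or 0.048 without anthranilic acid replicate 2. The other Ctnnd1 probes were at 0.07 and 0.08. Of the 9 tested junction genes, 5 stood above 0 and 4 below. Hyaluronan genes had a median of 0.10 over 4 of 8, with the hyaluronan synthase Has1 at 0.29 (SE 0.09, limma adjusted p = 0.323) and the receptor Cd44 at 0.32 (SE 0.14). With normexp background correction Has1 was at 0.20 and Cd44 at 0.23. The other 2 tested genes of this list, the hyaluronidases Hyal1 and Hyal2, were at -0.19 (SE 0.47) and -0.09 (SE 0.13). Ligands that endothelial and stellate cells send to hepatocytes had a median of 0.06 over 5 of 9, with Rspo3, which strengthens Wnt signals near the central vein, at -0.37 (SE 0.19) and Hgf at -0.21 (SE 0.09). Rspo3 was at -0.20 without anthranilic acid replicate 2. The other 3 stood above 0, with Kitlg at 0.29 (SE 0.19), Jag1 at 0.23 (SE 0.34) and Bmp2 at 0.06 (SE 0.14). Basement membrane genes had a median of -0.02 over 3 of 8, with the collagen Col4a1 at 0.26 (SE 0.11) and the laminin Lamc1 at -0.10 (SE 0.10), and other Col4a1 probes ran from -0.12 to 0.21, with a mean over its probes of 0.068. Among partners of Vwf only F8 was tested, of 4.

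Of the markers of other cells, those of stellate cells had a median of 0.02 over 8 genes, 4 of them above 0 and 4 below. Col1a1 was at 0.24 (SE 0.16) and Dcn at 0.11 (SE 0.13). The other tested Col1a1 probes were at 0.34 (SE 0.23) and 0.39 (SE 0.30). However, Col1a1 was at 0.063 without corn oil replicate 2 and Dcn at 0.015 without corn oil replicate 1. Below 0 were Col3a1 at -0.10, Des at -0.09, Pdgfrb at -0.07 and Reln at -0.04. Platelet markers had a median of -0.05 over 3 of 5, with Gp9 at -0.31 (SE 0.17), or -0.14 without corn oil replicate 3, and Gp1bb at 0.08 (SE 0.23). Lymphatic markers, relevant because lymphatic vessels also express Lyve1, had a median of 0.16 over 3 of 4, with the chemokine Ccl21 at 0.70 (SE 0.32), Flt4 at 0.16 (SE 0.11) and the transcription factor Prox1 at -0.08 (SE 0.14). Ccl21 was at 0.37 without corn oil replicate 1, and the other Flt4 probes were at -0.08 and -0.26. The average of the lymphatic list ranged from -0.24 to 0.20 in corn oil livers and from 0.19 to 0.33 in treated livers, and its part in the Lyve1 value was not tested. Hepatocyte markers had a median of -0.08 over 7 genes, with Apoa1 at -0.57 (SE 0.15) and Tf at -0.12 (SE 0.09), or -0.036 for Tf with quantile scaling. Their groups were apart as lower for 5 of 7, against 9.13% of all tested genes. Apoa1 lay furthest from 0 and weighed most in the average of the list. Alb was at -0.06, Ttr at -0.09, Serpina1 at -0.04 and Fgb at -0.08, with 0.04 at the second Fgb probe. Cps1 stood above 0, at 0.09 (SE 0.13). The average of the hepatocyte list ranged from -0.019 to 0.019 in corn oil livers and from -0.15 to -0.088 in treated livers. That is the same direction as Lyve1, and the part of this list in the endothelial values was not tested.

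**Figure D4:**
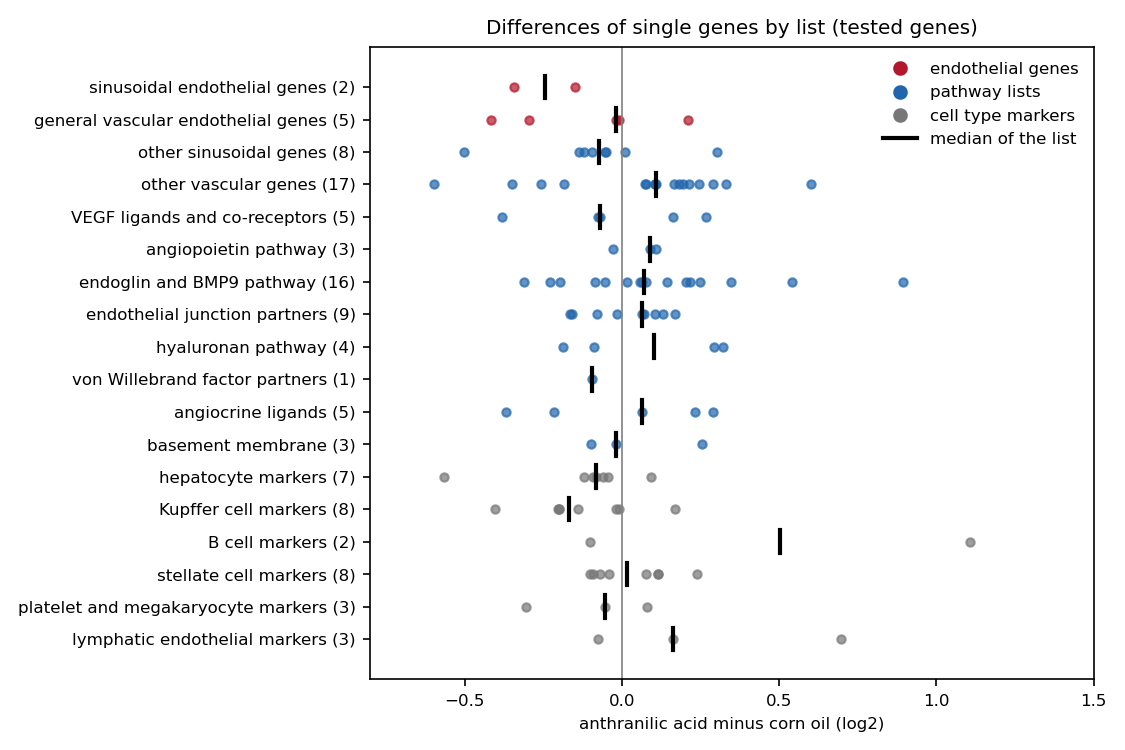
Difference between anthranilic acid and corn oil livers (log2) for each tested gene of the endothelial genes, of the pathway lists and of the cell type markers, with the number of tested genes in brackets and a bar at each list's median. Medians run from -0.25 for the sinusoidal genes to 0.16 for the lymphatic markers, apart from the 2 B cell markers, whose median is 0.50 with Cd79b at 1.11 and Cd22 at -0.10.

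Profiles over the 6 arrays were compared by the root mean square difference of log2 signals, each gene set to 0 at its own mean. For Lyve1, whose own spread by this measure was 0.19, the nearest of 10255 genes were Fermt1 (0.038), Ak7 (0.044) and Gna11 (0.045), and 63 genes lay within 0.1. Among the other endothelial genes the nearest was Fcgr2b at 0.14, ranked 427. For Eng, whose own spread was 0.172, the nearest were Plrg1 (0.023), Scfd2 (0.032) and Tspan12 (0.044), with 223 genes within 0.1. The endothelial gene at the smallest distance was Kdr at 0.179, ranked 2912. That distance exceeded Eng's own spread, so the profiles of Eng and Kdr were not alike.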

How the data were processed

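Liver RNA of 6 rats was measured on single-colour arrays. Per the file headers, the deposited spot intensity values came from Agilent Feature Extraction 10.7.1.1 and were not normalised between arrays. The submitters' processing notes name version 10.7. The authors' deposited table of the series holds the ratio of that signal to 1 value per array, which lay within 0.0355% to 0.126% of the 75th percentile, and served as an alternative.

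Log2 of the processed signal was taken relative to its 75th percentile among an array's 61657 non-control probes. Of 369942 spots, 14 flagged as outliers were left out. A probe was tested if well above background on all 3 arrays of a group, and if both groups had 2 or more usable spots (33428 probes). Accessions were matched without version to the RefSeq table of GRCr8 (27460 probes, 44.5%). The files use rn4, so no probe coordinates are given. The 2 groups were fitted by lmFit and eBayes of limma 3.58.1 under R 4.3.3, with two-sided p-values adjusted by Benjamini-Hochberg over all tested probes. The procedure was tested on simulated data drawn without slide or row effects, which cannot show how such effects bear on these values. Each replicate is another rat, per the labels' treatment protocol. Alternatives covered background correction, scaling, the filter, probe averaging, blocks for slide and replicate number, variance models and leaving out each array. The number of arrays limits the precision.

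The genes and lists were chosen with earlier results of these data known. All members are named, with the 2 genes of smallest p per list, ligands and partner receptors, and the 3 nearest profiles of Lyve1 and Eng. Further list genes (Mrc1, Gata4, Id1, Id3, Alb, Prox1, Col3a1, Des, Pdgfrb, Reln, Hyal1, Hyal2, Kitlg, Jag1, Bmp2, Ttr, Serpina1, Fgb, Cps1, S1pr1, Sox18, Nos3, Emcn and Tgfbr3) were named after their values were seen. One B cell marker is not reported here. Where the groups shared replicate numbers, the same-numbered arrays did not deviate together (r = 0.072, -0.051 and -0.043 over 33425 probes).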

Additional observations from a re-analysis of the deposited data

How the results depend on the processing

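No endothelial gene passed an adjusted p of 0.05 in limma under any of the 18 alternatives run, and the smallest adjusted p among them was 0.215 (Lyve1 with normexp, run on spot and background medians in place of means). Lyve1 stayed below 0 throughout, from -0.41 to -0.27. With the other Flt1 probe, an alternative chosen after seeing the data, Flt1 stood at 0.25 and the sinusoidal minus vascular difference at -0.27; with the mean over its probes Flt1 was at -0.08. Median scaling put Pecam1 at 0.033 and Kdr at 0.044, which turned the vascular median to 0.033. Without 1 array at a time, the sinusoidal median ranged from -0.32 to -0.17, the vascular median from -0.08 to 0.04, and their mean contrast from -0.19 to -0.074. The lowest contrast in size came without anthranilic acid replicate 1. Values that crossed 0 without 1 array ran from -0.082 to 0.062 for Pecam1, -0.032 to 0.036 for Kdr, -0.34 to 0.18 for Angpt2, -0.069 to 0.077 for Acvrl1, -0.18 to 0.26 for Gp1bb, -0.25 to 0.022 for F8 and -0.34 to 0.19 for Cd22. Angpt2 was at 0.014 with normexp, 0.0010 with quantile scaling, 0.024 with median scaling and 0.042 with array weights. Angpt1 was at -0.069 with normexp. With the mean over probes Gp1bb was at -0.13 and Flt4 at -0.059. With the replicate number as a block, no endothelial gene passed (smallest adjusted p = 0.425, Flt1) and 2 of all probes did, against 11 without it; the arrays share only a number. The slide block, which equals leaving out anthranilic acid replicate 3, gave a sinusoidal median of -0.32, with Lyve1 at -0.38 and Eng at 0.10. Flt1 and Tek lay near background, which limits what their values can show. The same holds for Angpt1, Calcrl, Has1, Gp9 and Tgfbr3 of the other lists, which were about as dim as Flt1 or dimmer.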
